A study of Mus musculus with 45 samples.

Results

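The whole uterine horn was compared with the muscle wall that stayed behind after the mucosa had been scraped away, within the same mouse. The comparison used every library labelled whole uterus or myometrium in both genotypes, 29 of the 45 libraries of the series, of which 14 were whole uterus and 15 were myometrium. They came from 14 female mice that were identified by the number in the labels, 7 wildtype (WT) and 7 Plag1 knockout (Plag1KO, or KO), and both myometrium libraries of WT mouse 12 were summed so that each mouse entered once per tissue. The remaining 16 libraries, the scraped endometrium of the same mice, were used only to show where a level in the whole horn lay.

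All mice were of the outbred CD-1 stock, young but sexually mature, and superovulated. Each of them, WT included, received 5 IU of pregnant mare serum and, 2 days later, 5 IU of human chorionic gonadotropin, so no untreated uterus was in the comparison. By the study's methods, superovulated females were then mated with WT males, apart from those that gave unfertilized oocytes. Oocytes or zygotes were taken the next morning. Which of the mice compared here were mated is not given in the labels. The KO mice lacked the transcription factor Plag1 in the whole body and not in a chosen cell type. The whole-horn sample was an intact piece, whereas endometrium and myometrium were taken from a horn that was opened lengthwise. Libraries were made from 10 ng of RNA by STRT, in which the 5′ end of each polyadenylated RNA is tagged and molecules are counted by unique molecular identifiers, with synthetic ERCC spike-in RNA added.

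The mouse uterine horn is a tube of layers. A luminal epithelium and the glands that grow from it lie on a stroma of fibroblasts, vessels and leukocytes, and together these form the endometrium. Around it run inner circular and outer longitudinal layers of smooth muscle with connective tissue and vessels between them, and a serosa covered by mesothelium closes the tube on the outside. In bulk RNA of such a tissue, fewer cells of a type and less RNA per cell cannot be told apart.

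The libraries differed in depth by tissue. Counts over genes, with spike-ins left out, were 924272 ± 216358 in whole uterus and 545804 ± 129154 in myometrium (SD, n = 14 mice each), and they were higher in the whole uterus of 13 of 14 mice (exact two-sided sign-flip permutation test over 16384 flips, p = 0.000366). Spike-ins took 0.952% ± 0.123 of the counts in whole uterus and 1.63% ± 0.343 in myometrium, and the share was lower in whole uterus in all 14 mice (exact permutation p = 0.000122, the smallest this test can give). The wells in the labels placed whole uterus in plate rows A and D and myometrium in rows B and E, apart from 1 of the libraries of mouse 12, which was in row F with endometrium. No row held both tissues, so plate row and tissue cannot be told apart. With a floor of 3 counts, the detection limit of single libraries lay between 2.45 and 6.17 CPM in whole uterus and between 3.49 and 9.68 CPM in myometrium, where CPM is a count rescaled so that libraries of unequal depth can be set side by side. Levels below are CPM with TMM scaling, which takes most genes to be equal between samples. For levels, the TMM factors were computed over all 3 tissues without a gene filter. Fold changes, and the counts of mice for single genes, used factors from the tested genes of whole uterus and myometrium alone.

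Defining markers matched the labels, with exceptions. Smooth muscle Acta2 was found in myometrium at 4634 to 10574 CPM and epithelial Krt8 at 8.66 to 160 CPM, against medians of 175 and 410 CPM in endometrium. Summed over 20 epithelial genes, the stripped myometrium held a median of 0.153 times the level of the endometrium of the same mouse, with a range from 0.0488 to 0.389. The myometrium of WT mouse 5 stood apart, since its epithelial sum was 3892 CPM while the other 13 lay between 447 and 1678 CPM. Results without this mouse are given where they rest on it. Some endometrium samples were mixed too. Their contractile sum was 27713 CPM in WT mouse 3 and 31169 CPM in KO mouse 13, against a median of 3340 CPM. The endometrium of WT mouse 8 had 5499 CPM of cilia and oviduct genes (median 135) and 198 CPM of mesothelial genes (median 22.7). Plag1 itself had at most 1 count in any sample, and its totals over 7 mice were 1 and 2 counts in the uterus of WT and KO mice and 1 count each in their myometrium, so the genotype labels could not be checked with it.

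Of 14243 genes tested, 3765 differed between whole uterus and myometrium at an edgeR adjusted p under 0.05 with the mouse as a block (26.4% of the genes tested). Higher levels in whole uterus were found for 2066 genes (14.5%) and lower levels for 1699 genes (11.9%). At least 2-fold differences were seen for 1010 higher and 1031 lower genes, and at least 4-fold differences for 362 higher and 103 lower genes. A difference in the same direction in each of the 14 mice was found for 379 higher and 193 lower genes. The CPM ranges of the 14 mice did not overlap for 20 genes above (0.14%) and 24 genes below (0.169%). Summed over genes, 19.4% of the variation lay between the tissues. That was more than with any other within-mouse swap of the labels (exact one-sided permutation over 8192 swaps, p = 0.000122). A further 43.8% lay between mice, and the 3.85% between genotypes is contained in that share. The share between mice spans 14 mice and takes up variation between single libraries, so it cannot be set against that of the tissues. Deviations from the tissue means correlated little within a mouse (mean r 0.0819).

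These directions are relative to TMM scaling, under which the median log2 fold change over all genes was 0.01. When libraries were scaled by spike-ins instead, the median shifted to 0.56 toward whole uterus and 92.6% of the calls were higher there, against 54.9% with TMM. A gene that is lower with TMM by less than this shift can thus be equal or higher per spike-in molecule.

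The genes with the largest higher levels in whole uterus were Dlx5, Cxcl17, Wfdc10, Cldn7, Tspan1, Tspan8, Cdo1 and Cfb. They were named as the leading 8 that were well expressed and moved in the same direction in 14 of 14 mice. Dlx5, a homeobox transcription factor of the uterine epithelium, ranged from 42.5 to 295 CPM in whole uterus (median 114) and from 1.99 to 84.0 CPM in myometrium (median 8.26). The groups overlapped by the highest myometrium samples, but each mouse had more Dlx5 in the whole horn, and the log2 fold change was 3.39 ± 0.27 (SE), or 10.5-fold (edgeR adjusted p = 2.93e-15). Cxcl17, a chemokine of mucosal surfaces, had medians of 197 and 18.4 CPM (log2 fold change 3.11 ± 0.25). Cldn7, a tight junction claudin, had medians of 145 and 15.3 CPM (3.00 ± 0.23), and Tspan8, a membrane tetraspanin, 194 and 21.9 CPM (2.96 ± 0.23). Cfb, complement factor B, varied widely between mice, from 16.1 to 1336 CPM in whole uterus and from 0 to 191 CPM in myometrium, and was higher in the whole horn in 14 of 14 (2.92 ± 0.23). For these genes the whole horn lay close to the endometrium, whose medians were 116 CPM for Dlx5, 230 CPM for Cxcl17, 217 CPM for Cldn7, 161 CPM for Tspan8 and 235 CPM for Cfb. On the authors' build, mm9 (NCBIM37), Dlx5 lies at chr6:6827805-6832085 on the minus strand, Cxcl17 at chr7:26185072-26197905 on the minus strand and Cldn7 at chr11:69778281-69781387 on the plus strand, by GENCODE vM1.

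Epithelial genes were higher in whole uterus as a block. All 20 members of the epithelium list passed the test in that direction, with a median log2 fold change of 2.69, while the median over all genes was 0.01. The smallest difference was that of Spint2, a protease inhibitor (0.92 ± 0.14), and the largest that of Tjp3, a junction scaffold (3.05 ± 0.52). Krt7, a keratin of simple epithelia, ranged from 204 to 1814 CPM in whole uterus (median 563) and from 15 to 384 CPM in myometrium (median 63.7), with a log2 fold change of 2.89 ± 0.20 (edgeR adjusted p = 3e-17). Krt7 was higher in the whole horn of 14 of 14 mice. Wfdc2, a secreted protease inhibitor of the WAP family, had 1143 to 3524 CPM in whole uterus and 79.8 to 2040 CPM in myometrium, and was higher in 13 of 14 mice (2.76 ± 0.21). The exception was WT mouse 5, with 1890 CPM in whole uterus and 2040 CPM in myometrium. Without mouse 5, the list median was 2.72 and again 20 of 20 members were higher.

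Secretory genes of glands and of the estrogen-stimulated lumen followed with a larger spread between mice. Of 20 genes listed, 17 could be tested, 11 were higher in whole uterus and 0 were lower, with a median of 1.75. Lcn2, lipocalin 2, ranged from 145 to 13309 CPM in whole uterus and from 19.5 to 1854 CPM in myometrium, so the groups overlapped widely, and it was higher in the whole horn in 13 of 14 mice (2.75 ± 0.22). Prss29, an implantation serine protease of the glands, had medians of 778 and 191 CPM and was higher in 14 of 14 (1.57 ± 0.17). Among the 6 members that did not pass were Foxa2, the transcription factor of gland cells (1.78 ± 0.82), and Lif, the cytokine of implantation (0.82 ± 1.00), whose large errors left their direction unresolved.

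**Figure D1:**
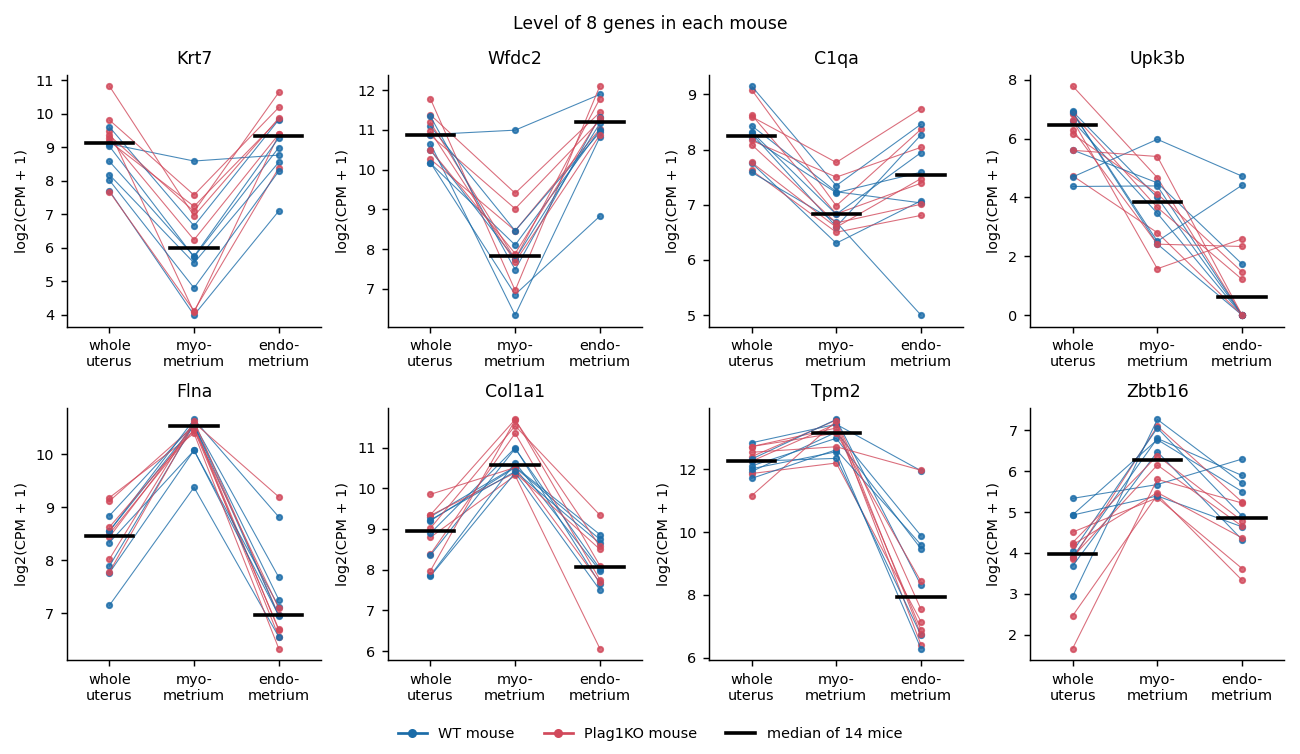
Level of 8 genes as log2(CPM + 1) in whole uterus, myometrium and endometrium, with each point a mouse, lines joining the tissues of a mouse, colour giving the genotype and black bars the median of 14 mice. Krt7 and Wfdc2 were lowest in myometrium, with the WT mouse 5 line nearly flat for Wfdc2. Flna, Col1a1 and Zbtb16 in whole uterus lay wholly below their range in myometrium, and Upk3b had its highest median in the whole horn.

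On the other side, the named genes with the largest lower levels in whole uterus were Snora81, Zbtb16, Rn45s, Adgrl1, Rbfox2, Flna, Hspg2 and Col1a1, lower in 14 of 14 mice. Zbtb16, a zinc finger transcription factor that responds to glucocorticoid and progesterone, ranged from 2.17 to 39.3 CPM in whole uterus (median 14.7) and from 39.7 to 153 CPM in myometrium (median 76.0). The groups did not overlap, and the log2 fold change was −2.25 ± 0.24 (edgeR adjusted p = 5.99e-11). Flna, the actin crosslinker filamin A, had 141 to 578 CPM in whole uterus and 662 to 1610 CPM in myometrium, again without overlap (−2.05 ± 0.14). Hspg2, the basement membrane proteoglycan perlecan, had 23.1 to 62.4 against 82.0 to 264 CPM (−2.04 ± 0.16), and Col1a1, a chain of type I collagen, 229 to 923 against 1273 to 3307 CPM (−2.04 ± 0.17). These 4 genes stayed lower under spike-in scaling, with log2 fold changes of −1.69 for Zbtb16, −1.47 for Flna, −1.45 for Hspg2 and −1.46 for Col1a1. Flna lies at chrX:71468800-71495159 on the minus strand and Col1a1 at chr11:94797538-94814356 on the plus strand of mm9.

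Smooth muscle genes were lower in whole uterus in nearly every case. Of 25 members of the contractile apparatus, 24 passed the test in that direction and 0 in the other, with a median log2 fold change of −0.97. Without mouse 5, 25 of 25 were lower. Tpm2, the muscle tropomyosin, ranged from 2278 to 7332 CPM in whole uterus (median 4880) and from 4694 to 12276 CPM in myometrium (median 9179), and was lower in the whole horn of 14 of 14 mice (−0.83 ± 0.14; edgeR adjusted p = 5.76e-06). Acta2, smooth muscle actin, had medians of 3489 and 7414 CPM (−0.94 ± 0.13), and Myh11, the smooth muscle myosin heavy chain, 526 and 1418 CPM (−1.32 ± 0.15). Myl6, a myosin light chain of muscle and other cells, differed less (−0.70 ± 0.13). The member that did not pass was Srf, the serum response factor that drives muscle genes, with medians of 19.2 and 28.2 CPM (−0.71 ± 0.28; edgeR adjusted p = 0.0551). These differences depended on scaling. Per spike-in molecule the list median was −0.39, with 13 of 25 members lower and 0 higher, and Tpm2 (−0.25) and Myl6 (−0.11) no longer passed.

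The CArG box, the site that serum response factor binds in muscle genes, was searched for in promoter windows of 300 bases, from 250 before to 50 after each RefSeq start (build GRCm38.p6), since these genes moved together. A match was CC, then 6 bases that were each A or T, then GG. This pattern is its own reverse complement, so a single scan covered both strands. It was present in the windows of 5 of 20 contractile genes with a window (25%), in 3 of 11 striated muscle-type genes (27.3%), in 0 of 18 fibroblast matrix genes, in 0 of 14 epithelial genes and in 176 of all 10790 tested genes with a window (1.63%). The 5 contractile genes are shown with the box in capitals and up to 25 bases on either side, 5′ to 3′ on the strand of the gene.
Myl9 promoter, chr2:156775278-156775337, plus strand: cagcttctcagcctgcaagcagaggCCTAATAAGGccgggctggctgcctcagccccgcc
Myl6 promoter, chr10:128493025-128493084, minus strand: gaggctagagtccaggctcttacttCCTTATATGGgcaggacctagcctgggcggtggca
Srf promoter, chr17:46556190-46556269, minus strand: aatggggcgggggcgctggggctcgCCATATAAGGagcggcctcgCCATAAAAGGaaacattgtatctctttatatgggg
Vcl promoter, chr14:20929148-20929205, plus strand: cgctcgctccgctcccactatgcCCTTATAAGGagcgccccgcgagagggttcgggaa
Ldb3 promoter, chr14:34588682-34588741, minus strand: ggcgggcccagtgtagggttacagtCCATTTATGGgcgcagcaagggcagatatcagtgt
The box began 161 bases before the start of Myl9, 227 bases before that of Vcl, and 82 and 62 bases before that of Srf. Myl6 and Ldb3 had 2 starts each. The box of Myl6 began 50 bases before one of them and the window of the other held none, and the same box of Ldb3 lay before both of its starts, 35 bases before the nearer. Myl9, the regulatory light chain (−0.88 ± 0.13), Myl6, Vcl, the adhesion protein vinculin (−1.82 ± 0.22), and Ldb3, a protein of the Z line (−1.02 ± 0.33), were lower in whole uterus, and Srf was the member that did not pass. A match is a description of the letters in a window and not of binding. Near matches that differ at a single base, such as ccctatatgg in the Acta2 window, were not counted. A window without a match can thus hold a near match.

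Genes of muscle excitation and coupling were lower as well. Of 17 tested, 10 were lower in whole uterus and 0 higher, with a median of −1.17. Of all genes tested, 11.9% were called lower. Among transcripts of 3541 to 4868 bases, where the median length of this list lay, the share was 13.2%. Kcnmb1, the beta subunit of the calcium-activated potassium channel, had 13.3 to 124 CPM in whole uterus and 36.8 to 135 CPM in myometrium (−0.93 ± 0.18), and Pde5a, a cyclic GMP phosphodiesterase of smooth muscle, medians of 25 and 42.9 CPM (−1.26 ± 0.23). Oxtr, the oxytocin receptor, was low in either tissue, with medians of 6.94 and 14.7 CPM (−1.17 ± 0.37). Gja1, the gap junction protein connexin 43, did not pass (0.22 ± 0.25). Per spike-in molecule 5 members of this list were lower and 3 higher, with a median of −0.64, and Kcnmb1 (−0.36) and Oxtr (−0.64) no longer passed. Sarcomere genes best known from striated muscle gave 7 lower and 0 higher of 13 tested, with a median of −0.81. Acta1, skeletal alpha-actin, was lower in the whole horn of 14 of 14 mice (medians 165 and 291 CPM, −0.81 ± 0.13), and Tnnt2, cardiac troponin T, in 12 of 14 (38.1 and 88.9 CPM, −1.13 ± 0.19). Per spike-in molecule 1 member was lower and 0 higher, with a median of −0.24, and Acta1 no longer passed (−0.24).

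Fibroblast matrix genes split. Of 26 tested, 19 were lower in whole uterus and 2 higher, with a median of −1.20. Vcan, the proteoglycan versican (−2.17 ± 0.45), Col3a1 (−1.96 ± 0.25) and Lum, lumican (−1.77 ± 0.22), were among the lower genes. Sparc, a matricellular glycoprotein, had medians of 1430 and 2870 CPM (−0.87 ± 0.13), and Dcn, the proteoglycan decorin, 1498 and 2024 CPM (−0.41 ± 0.14; edgeR adjusted p = 0.0218). Dcn did not pass without mouse 4 (−0.32) or mouse 14 (−0.34). Both lost the call under spike-in scaling, where Dcn was at 0.17. The 2 higher members were Fbln1, fibulin 1, with medians of 218 and 72.7 CPM (1.20 ± 0.16), and Mfap5, a microfibril protein, with 160 and 63.1 CPM (1.05 ± 0.18). Per spike-in molecule 13 members were lower and 7 higher. The matrix sum of the list lay between endometrium and myometrium in 13 of 14 mice, as the smooth muscle sum did in 14 of 14 and the epithelial sum in 11 of 14.

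Among stromal transcription factors and steroid receptors, 6 of 20 were lower in whole uterus and 0 higher, with a median of −0.42. For comparison, 11.9% of all genes tested were called lower. The share was 13.2% among transcripts of 3541 to 4868 bases, where the median length of this list lay. Pgr, the progesterone receptor (−1.37 ± 0.22), and Nr3c1, the glucocorticoid receptor (−1.66 ± 0.30), were among the lower genes. Esr1, the estrogen receptor (−0.34 ± 0.19), and Hoxa10, the homeobox factor of uterine patterning (−0.32 ± 0.15), did not pass. Per spike-in molecule the median of this list changed sign to 0.15, with 4 members lower and 1 higher. With TMM, the sum of this list was lower in the whole horn than in either layer in 13 of 14 mice. By gene medians over mice, the whole horn lay below both layers for 26.6% of all genes tested and between them for 44.2%. Of the genes called lower, 62.4% lay below both, but they were picked for lying below myometrium, so this share is not comparable with 26.6%. The whole horn exceeded endometrium for 35.1% of the genes called lower and for 45.3% of all genes tested.

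**Figure D2:**
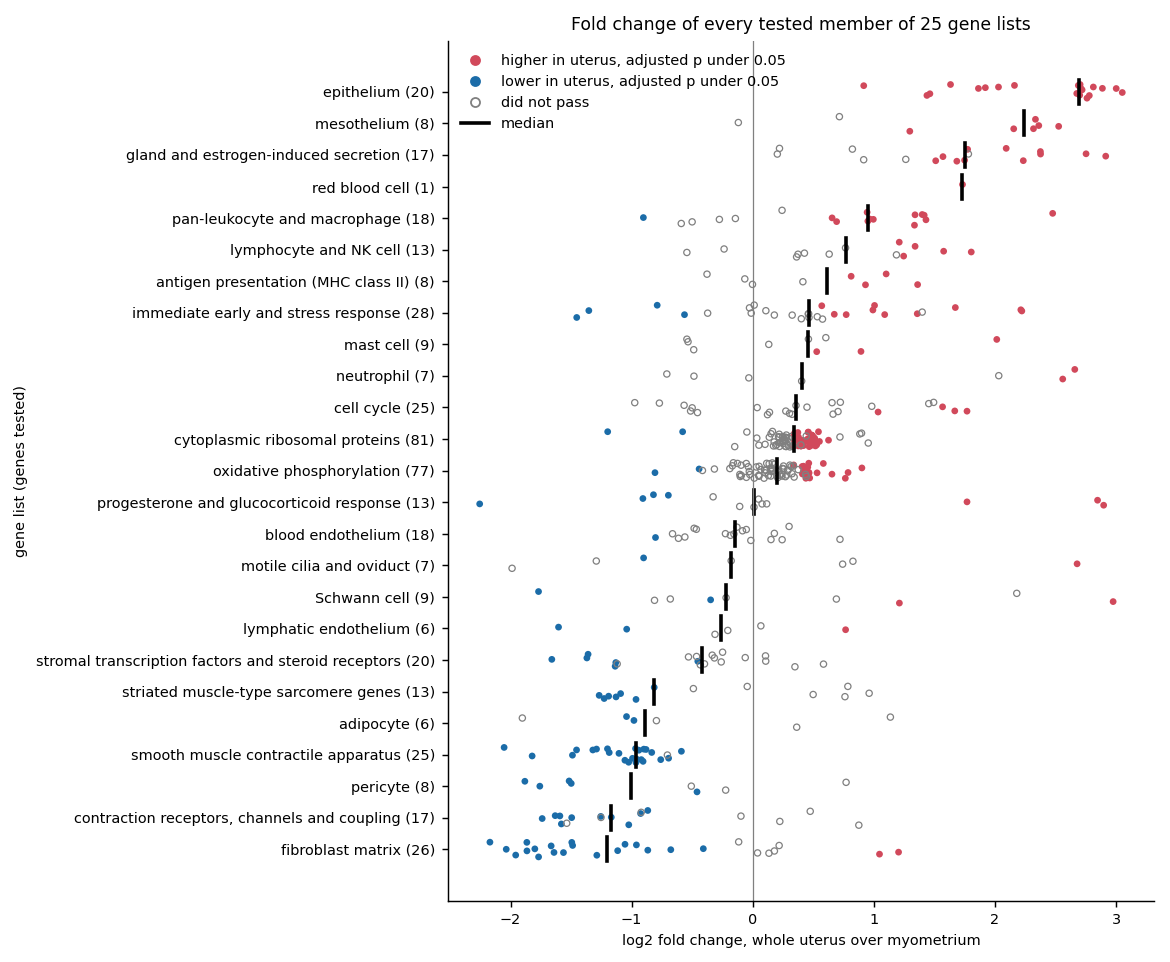
Log2 fold change of whole uterus over myometrium for every tested member of 25 gene lists, ordered by the list median (black bar), with filled points past an edgeR adjusted p of 0.05 and open points that did not pass. All 20 epithelial members lie to the right of 0, all 25 contractile members to the left, and the fibroblast matrix list has 2 filled points on the right.

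Mesothelial genes were highest in the intact horn. Of 8 that could be tested, 6 were higher in whole uterus and 0 lower, with a median of 2.24. Upk3b, a uroplakin of mesothelium, ranged from 19.7 to 220 CPM in whole uterus (median 87.2) and from 1.98 to 61.9 CPM in myometrium (median 13.3), and its median in endometrium was 0.66 CPM. It was higher in the whole horn in 12 of 14 mice (2.33 ± 0.31; edgeR adjusted p = 2.13e-08), and Msln, mesothelin, in 11 of 14 (2.15 ± 0.41). Lrrn4, Nkain4, Upk1b and Cldn15 were the other members that passed. Rspo1, a secreted Wnt agonist, did not (−0.12 ± 0.22), nor did Gpm6a, a membrane glycoprotein (0.72 ± 0.53). The summed level was 77.0 to 491 CPM in whole uterus, 53.1 to 176 CPM in myometrium and 7.75 to 198 CPM in endometrium, and in 13 of 14 mice the whole horn exceeded both layers. WT mouse 8 had the reverse, with 77.0 CPM in whole uterus and 176 CPM in myometrium, and without it the median of the list was 2.53 with the count of 6 again. By gene medians over mice, the whole horn exceeded both layers for 29.2% of all genes tested. Genes called higher were picked for exceeding myometrium, so for them only the comparison with endometrium is open. The whole horn exceeded endometrium for 61.8% of the genes called higher and for 45.3% of all genes tested.

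Leukocyte genes were higher in whole uterus, though not all of them. Of 18 general leukocyte and macrophage genes, 12 were higher and 1 lower, with a median of 0.95. C1qa, a complement chain made by macrophages, had 192 to 568 CPM in whole uterus (median 304) and 77.9 to 217 CPM in myometrium (median 113), and was higher in 14 of 14 mice (1.34 ± 0.14; edgeR adjusted p = 2.98e-11). Lyz2, lysozyme, differed less (0.69 ± 0.15). Tyrobp, a signalling adaptor of myeloid and NK cells, was the single member whose ranges did not overlap, at 79.5 to 244 against 25.1 to 67.9 CPM (1.42 ± 0.16). Mrc1, the mannose receptor of resident macrophages, was the member that was lower (−0.90 ± 0.31), and 0 members were lower without mouse 5. Ptprc, the pan-leukocyte antigen CD45, had medians of 20.7 and 20.5 CPM and did not pass (0.24 ± 0.25). The summed level in the whole horn exceeded that of both layers in 12 of 14 mice. The sum of the ribosomal protein genes did so in 11 of 14, so this position was not particular to leukocyte genes.

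Other immune lists pointed the same way with fewer calls. Of all genes tested, 14.5% were called higher. Among genes with transcripts of up to 1720 bases, where the median lengths of these lists lay, the share was 30.3%. The shares of the mast cell and neutrophil lists were near the latter. MHC class II presentation gave 4 higher and 0 lower of 8, led in level by Cd74, the invariant chain (medians 723 and 306 CPM, 1.10 ± 0.15), and H2-Ab1 (445 and 252 CPM, 0.81 ± 0.15). The lymphocyte and NK cell list gave 5 higher and 0 lower of 13, with Gzma, granzyme A, at medians of 19.1 and 4.27 CPM (1.80 ± 0.29). Jchain, the joining chain of plasma cells, did not pass (0.37 ± 0.23), though it did without mouse 4 (0.59). The mast cell list gave 3 higher and 0 lower of 9. Hdc, which makes histamine, was the largest of these (2.01 ± 0.26), but its median was 62.1 CPM in endometrium, where Tpsb2, a mast cell tryptase, had 2.27 CPM. Tpsb2 had 70.6 and 40.0 CPM in whole uterus and myometrium (0.89 ± 0.20). The neutrophil list gave 2 higher and 0 lower of 7, and of these Retnlg had medians of 24.6 and 3.06 CPM (2.56 ± 0.38), while Mmp9 was at −0.71 ± 0.43 and did not pass. The median of the neutrophil list was −0.51 over 5 genes tested in WT and 1.61 over 6 genes tested in KO mice. Since the genes differ, these medians are not a comparison of genotypes, and 0 members passed the interaction test. The list median over all mice was unstable, at 0.40, but 0.07 without mouse 8. It was 1.64 in mice 1 to 8 alone and 1.44 in mice 9 to 14 alone.

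Blood endothelial genes gave few calls. Of 18 blood endothelial genes, 1 was lower in whole uterus, the water channel Aqp1 (−0.81 ± 0.19), and 0 were higher, with a median of −0.14. Pecam1 (−0.13 ± 0.23), Cdh5 (−0.08 ± 0.26) and Ramp2 (0.24 ± 0.14), the most abundant member, did not pass, and the missed threshold does not show equality. Per spike-in molecule 4 were higher and 0 lower, and Aqp1 did not pass (−0.24). Pericyte genes gave 5 lower and 0 higher of 8, with a median of −1.003, and 4 lower and 1 higher per spike-in molecule. Pdgfrb, the receptor of mural cells and fibroblasts, was among them (medians 45.3 and 148 CPM, −1.52 ± 0.21), but Rgs5 was not (−0.22 ± 0.18). Lymphatic genes gave 1 higher and 2 lower of 6, with Pdpn, podoplanin, which mesothelium makes too, at 0.77 ± 0.26 (0.69 without mouse 1 and 0.68 without mouse 3, where it did not pass) and Lyve1 at −0.31 ± 0.23. Of 6 adipocyte genes tested, Fabp4 (−0.98 ± 0.19) and Lpl (−1.04 ± 0.23) were lower, and both lost the call per spike-in molecule (−0.41 and −0.44). Schwann cell genes gave 2 higher and 2 lower of 9, and those of cilia and oviduct 1 higher and 1 lower of 7. Of all genes tested, 14.5% were called higher and 11.9% lower. The calls for cilia and oviduct and the higher call among lymphatic genes were near these shares. Among transcripts of 3541 to 4868 bases, where the median lengths of the pericyte and lymphatic lists lay, 13.2% were called lower. The 1 red cell gene tested, Alas2, was higher (1.73 ± 0.49), with a median of 0 CPM in myometrium.

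**Figure D3:**
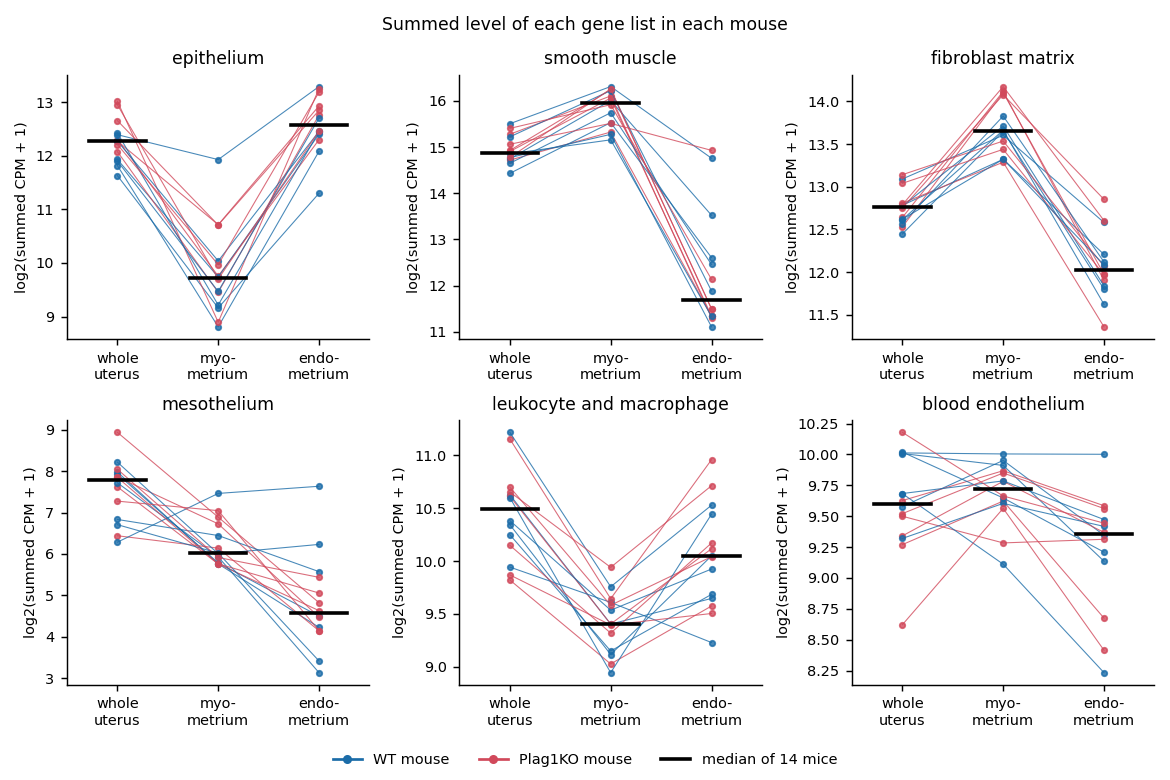
Summed level of 6 gene lists as log2(summed CPM + 1) in each mouse and tissue, with lines joining the tissues of a mouse and black bars the median of 14 mice. By median, the epithelial sum is lower and the smooth muscle and matrix sums are higher in myometrium than in whole uterus, the mesothelial and leukocyte sums are highest in the whole horn, and blood endothelium overlaps throughout.

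Genes of response and growth were mixed. Of 28 immediate early and stress genes, 10 were higher in whole uterus and 4 lower. Ier3 had medians of 456 and 77.2 CPM (2.21 ± 0.19), Ptgs2, the inducible cyclooxygenase, was near the floor in whole uterus (median 2.11 CPM; 2.22 ± 0.66), and Jund (−1.45 ± 0.22) and Jun (−0.56 ± 0.17) were lower. Jun had a log2 fold change of 0.01 under spike-in scaling. Of 13 genes that respond to progesterone or glucocorticoid, 3 were higher, among them Cyp26a1, which degrades retinoic acid (medians 62.6 and 4.51 CPM, 2.85 ± 0.30), and 4 were lower, among them Zbtb16 and Errfi1 (−0.70 ± 0.18; −0.12 per spike-in molecule, where it did not pass). Tsc22d3, a glucocorticoid-induced gene, was at 0.01 ± 0.17. Cell cycle genes gave 4 higher and 0 lower of 25, a share near the 14.5% of all genes tested, with Ube2c higher in the whole horn of 14 of 14 mice (1.67 ± 0.23) and Ccnd1, cyclin D1, at −0.51 ± 0.20 without passing. Ccnd1 passed when any of mice 5, 6, 7, 8, 10 or 14 was left out, with values from −0.64 to −0.55.

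The direction of a difference moved with the length of the transcript. Annotated lengths were found for 98.2% of the genes tested. Genes were put into 5 equal groups by length. In the shortest group (54 to 1720 bases) the median log2 fold change was 0.36, and it was 0.22, 0.04 and −0.16 in the next ones and −0.51 in the longest (4869 to 106824 bases). The share of genes called higher fell along these groups from 30.3% to 3.36% and the share called lower went from 5.04% to 26.6%. Across 13984 genes, which are not independent, Spearman's rho between length and log2 fold change was −0.37. The medians of the shortest and the longest group were 0.33 and −0.45 in WT mice and 0.39 and −0.63 in KO mice. Within libraries, the longest group held 4.69% ± 0.906 of the counts in whole uterus and 7.77% ± 1.39 in myometrium, and it was lower in whole uterus in 13 of 14 mice (exact two-sided sign-flip permutation, n = 14, p = 0.000366).

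The epithelial, mesothelial, leukocyte, contractile and matrix lists kept most of their differences when this trend was reduced. The fit was repeated with offsets that followed each sample's own trend with length, a choice made after seeing the data, and rho was −0.14 in it. It called 3047 genes (21.4%), of which 1618 were higher (11.4%) and 1429 were lower (10%). The epithelial list had 20 of 20 higher with a median of 2.45, the mesothelial list 6 of 8 higher (2.01), the leukocyte list 11 of 18 higher (0.67), the contractile list 23 of 25 lower (−1.02) and the matrix list 19 of 26 lower (−1.04). Medians of the other immune lists fell. MHC class II genes had 4 of 8 higher (0.35, against 0.61 without the correction) and lymphocyte and NK cell genes 3 of 13 (0.57 against 0.77). Mast cell genes had 2 of 9 higher (0.18 against 0.46) and neutrophil genes 2 of 7 (0.19 against 0.40). Of the coupling genes, 8 of 17 were lower (−0.92). Housekeeping lists did not keep their differences. Their median lengths lay in the shortest group, whose median the correction itself moved from 0.36 to 0.11. The lost calls thus do not show whether these genes differ. Of 81 ribosomal protein genes, whose median length was 940.5 bases, 36 were higher and 2 lower without the correction and 4 were higher and 2 lower with it. Of 77 genes of oxidative phosphorylation, 18 were higher and 2 lower without it and 4 were higher and 11 lower with it. Per spike-in molecule 77 ribosomal protein genes and 69 genes of oxidative phosphorylation were higher. Their most abundant members did not pass in the first fit, with Rps14 at 0.10 ± 0.21, Rpl35a at 0.19 ± 0.13, Cox8a at −0.03 ± 0.13 and Cox6c at −0.17 ± 0.13.

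**Figure D4:**
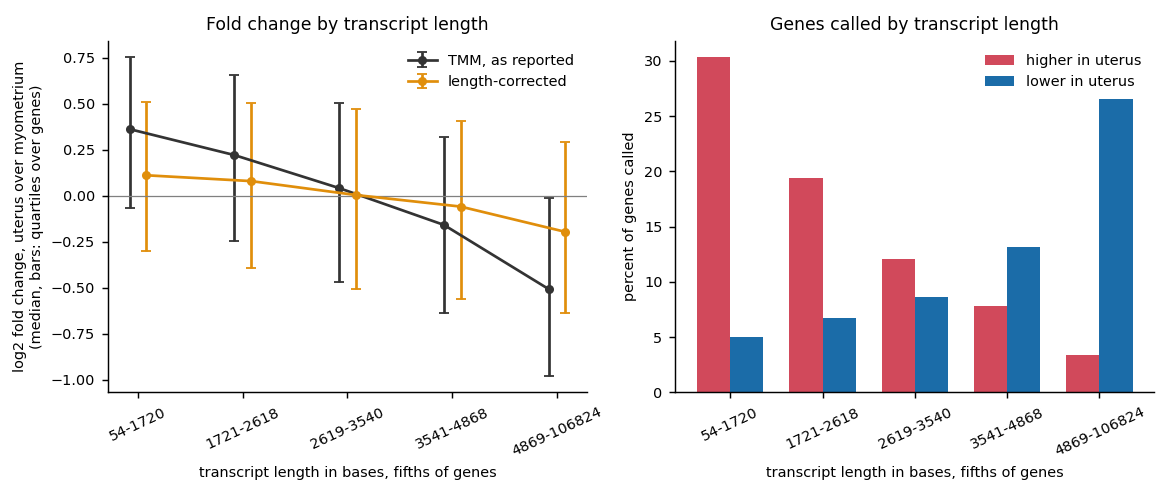
Left, median log2 fold change of whole uterus over myometrium (bars, quartiles over genes) for 5 equal groups of genes by transcript length in bases, as reported and with the length correction. Right, percent of genes in each group called higher or lower at an edgeR adjusted p under 0.05. The median goes from 0.36 to −0.51 along the groups, and from 0.11 to −0.20 after the correction.

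Several noncoding RNAs were lower in whole uterus in each mouse. Of those given here, Malat1, Neat1, Xist and Meg3 were chosen after their values had been seen. Malat1, a nuclear RNA, ranged from 726 to 3187 CPM in whole uterus and from 3128 to 11366 CPM in myometrium, so that the ranges overlapped at a single edge (−1.97 ± 0.15). Neat1, the RNA of nuclear paraspeckles, was at −1.53 ± 0.26, Xist, the RNA of the inactive X chromosome, at −1.42 ± 0.18 and Meg3, an imprinted RNA, at −2.77 ± 0.41. Rn45s, the ribosomal RNA precursor, had 602 to 3249 against 2290 to 24677 CPM (−2.11 ± 0.17). Snora81, a small nucleolar RNA, had 0 to 11.0 against 18 to 128 CPM, the largest lower level among the named genes (−3.94 ± 0.29). It lies at chr16:23110829-23111006 (mm9, plus strand) on the same strand inside its host gene Eif4a2, a translation initiation factor, which had medians of 105 and 97.6 CPM and a log2 fold change of 0.01 ± 0.15. How reads shared by both were counted is not given in the sources used here. STRT tags polyadenylated RNA, so the counts of Rn45s and Snora81 need not measure the level of these RNAs. All 6 noncoding RNAs stayed lower in the length-corrected fit and under spike-in scaling. Spike-in share and depth moved with tissue as given above, and their part in these differences was not tested.

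Both genotypes showed the tissue difference. In WT mice alone, 1678 of 13104 genes passed (12.8%), 938 higher (7.16%) and 740 lower (5.65%), and in KO mice alone 2186 of 12970 passed (16.9%), 1156 higher (8.91%) and 1030 lower (7.94%). Without mouse 12, the WT count was 1113. Epithelial genes were higher for 20 of 20 in WT and 19 of 20 in KO mice, and contractile genes lower for 20 of 25 and 22 of 25. The median of the mesothelial list was 1.77 in WT and 2.41 in KO mice, and that of the matrix list −0.94 and −1.37. Genotype was spread unevenly over the plate. Mice 1 to 8 (rows A to C) were 5 WT and 3 KO. Mice 9 to 14 (rows D to F) were 2 WT and 4 KO. The mesothelial median was 1.92 in mice 1 to 8 and 2.42 in mice 9 to 14. The matrix median was −1.10 and −1.45 in the same order. Plate position and genotype were not tested apart for these medians.

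A difference between genotypes in the tissue effect needs its own test. The edgeR interaction test called 0 of 14243 genes (0%), with 424 at an unadjusted p under 0.05, and DESeq2 called 1, the adipocyte gene Cfd, with 300 unadjusted. In data simulated for this comparison, the test recovered 52% of 4-fold and 8% of 2-fold differences, so a difference of 2-fold would mostly have been missed. The simulated differences were placed only in genes above a minimum mean level, so recovery among the lowest genes was not measured. The smallest p belonged to Ovgp1, oviductal glycoprotein 1, with a log2 fold change of 1.95 ± 0.39 in WT and −0.54 ± 0.45 in KO mice, an interaction of −2.45 ± 0.62 and an edgeR adjusted p of 1. Ovgp1 had medians of 14.0 CPM in whole uterus, 10.8 CPM in myometrium and 75.8 CPM in endometrium, and over all mice it passed without mouse 4 (1.12) or mouse 14 (1.21) but not with them (0.83 ± 0.37).

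**Figure D5:**
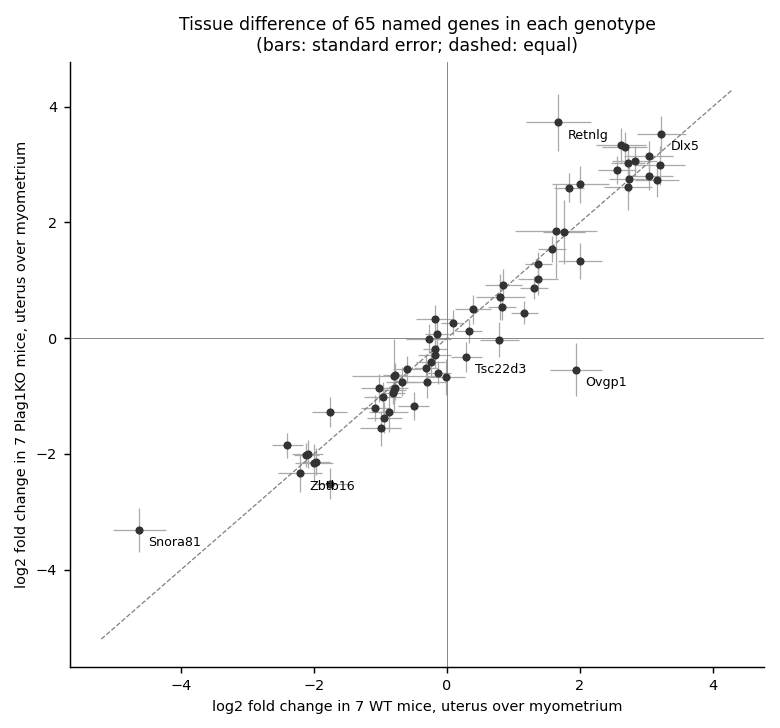
Log2 fold change of whole uterus over myometrium for 65 named genes in 7 WT mice (x axis) and 7 Plag1KO mice (y axis), with bars giving the standard error and the dashed line equality. Most points lie near the line, and Ovgp1 is farthest below it, at 1.95 in WT and −0.54 in KO mice.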

How the data were processed

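RNA was measured by STRT, a 5′-end method with unique molecular identifiers. The values deposited by the authors are raw counts of molecules per gene and spike-in, one column per library, not normalized. Reads were aligned to mm9 with TopHat and counted with Homer according to the study's methods, and the submitters' processing notes name HTSeq and mm9. Versions, the use of strand and the treatment of reads with several matches are not given in the sources used here, so that genes with near-identical copies, among them ribosomal proteins, mast cell proteases and MHC genes, and overlapping genes are uncertain.

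Whole uterus was compared with myometrium in 14 mice, numbered in the labels, with both myometrium libraries of mouse 12 summed. The 92 spike-in rows were set apart from the 24422 gene rows. A gene was tested where 5 or more samples reached 1 CPM. The test was run with edgeR 4.0.16 (R 4.3.3; quasi-likelihood F test, TMM factors, mouse and tissue as terms), and genes were called at a Benjamini-Hochberg adjusted p under 0.05. The SE is the log2 fold change divided by the root of F. Fits were made for all mice, for each genotype and for the interaction. Since samples of a number come from the same animal, the pairing rests on the labels. Deviations from the tissue means correlated at a mean r of 0.0819 within a mouse and −0.0137 between mice. On simulated data with 200 changed genes, the all-mice fit recovered 99% of 4-fold and 61% of 2-fold changes. In all simulations the changed genes were drawn from those above a minimum mean level, and 2-fold changes were counted without regard to sign. Depth limits genes near the floor of 3 counts, and floors cover counting error only.

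Gene lists, 525 genes in 25 lists, and the genes compared were chosen with earlier results of these data known. Named by rule were the 8 largest differences in either direction among genes called, at an average log2 CPM of at least 5 and in the same direction in 14 mice, the 2 most abundant members of each list, Plag1, and the interaction gene with the smallest p. A gene that this rule names is not reported here. Other genes in the text were picked after their values were seen. Coordinates and transcript lengths are from GENCODE vM1 on NCBIM37, matched for 22243 of 24422 gene rows, and promoters from RefSeq on GRCm38.p6. Alternatives were limma 3.58.1, DESeq2 1.42.0, other scalings and filters, thinning to 309987 counts, either library of mouse 12 alone, mice 1 to 8 and 9 to 14 alone, and each mouse left out. The correction for transcript length used a lowess span of 0.3.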

Additional observations from a re-analysis of the deposited data

Results flagged for a closer look

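In 21 of 280 groups of 7 samples (7.5%), a sample lay farther from the others than Dixon's 95% limit allows, while chance gives about 5%. Of these, 18 were gene levels, given here in log2 CPM. The myometrium of WT mouse 5, which was high in epithelial RNA, stood out for Cxcl17 (7.89), H2-Ab1 (6.86), Pax8 (5.22) and Ccnd1 (4.01). In whole uterus, KO mouse 9 stood out for Tspan8 (6.28) and Pax8 (3.57), WT mouse 12 for Adgrl1 (7.17), KO mouse 11 for Sparc (11.47), KO mouse 14 for Lyve1 (6.35), WT mouse 10 for Rgs5 (8.73) and WT mouse 3 for Myl6 (12.74) and Tpsb2 (7.33). In myometrium, KO mouse 14 stood out for Sparc (11.77) and Alas2 (3.96), KO mouse 4 for Pdpn (2.54) and Lyz2 (5.93), WT mouse 10 for Jun (8.56) and WT mouse 8 for Errfi1 (5.16). Among library measures, the myometrium of WT mouse 10 had 858698 counts, and that of KO mouse 9 had a spike-in share of 2.61% and 10137 genes detected.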

How the results depend on the processing

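The count of 3765 genes was 3678 with DESeq2, 3720 with RLE factors, 4312 with limma, 3722 without a gene filter, 3441 with a filter at 10 CPM, 2545 after thinning to equal depth, 3047 with the length correction, 3852 with the 3 tissues in one fit and 3952 without the replicate block, and it was 2417 in mice 1 to 8 alone, 1482 in mice 9 to 14 alone and 406 when tested against a 2-fold difference, with fewer samples or a stricter hypothesis in the last 3. The WT count was 4381 with spike-in scaling and 1083 after thinning, the KO count 1405 after thinning, and the interaction count 1 with DESeq2. Without the block no count of calls moved by over 1.5 times. Calls higher in whole uterus were 54.9% with TMM, 92.6% with spike-ins and 47.9% with DESeq2. With each mouse left out in turn, counts ran from 3293 to 3979 in all mice, 1113 to 1997 in WT (lowest without mouse 12, highest without mouse 5), 1547 to 2588 in KO and 0 to 0 for the interaction, the tissue share from 18.6% to 21.1%, the difference in spike-in share from −0.713 to −0.620 percentage points and that in total counts from 348296 to 423367. In mice 9 to 14 alone the difference in total counts was 178606 (exact permutation p = 0.0938).

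Of the values of named genes under the alternatives, 1742 kept direction and call, 72 lost the call, 35 gained it and 35 changed sign, and the cause was not tested. With spike-in scaling, signs changed for Hoxa10 (0.26), Dcn (0.17), Rspo1 (0.44), Lyve1 (0.24), Rgs5 (0.36), Pmp22 (0.23), Jun (0.0097), Ccnd1 (0.031), Cox8a (0.55) and Cox6c (0.41). Of these, Dcn, Pmp22 and Jun had been called. Rspo1 was 0.013 with the 3 tissues in one fit and ran from −0.261 to 0.0092 with each mouse left out. Tsc22d3 was −0.053 with DESeq2, −0.059 with RLE factors, −0.021 at 10 CPM, −0.045 with the length correction, −0.093 in mice 1 to 8, −0.11 after thinning and −0.00063 with the 3 tissues in one fit, and ran from −0.0541 to 0.0803 with each mouse left out. Rps14 was −0.20 with the length correction, −0.16 in mice 1 to 8 and −0.0054 after thinning, and ran from −0.00574 to 0.247 with each mouse left out. Cox8a was 0.036 in mice 1 to 8 and ran from −0.0977 to 0.0311 with each mouse left out. The length correction was chosen after seeing the data.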
